A study of Mus musculus with 24 samples.

Results

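The autophagy machinery described here is a set of 37 genes whose proteins start, build or load the autophagosome, listed by symbol for their known roles. Their Ensembl identifiers were looked up in the deposited expression table through GENCODE M21, the mouse gene annotation. All 37 were found among its 54532 genes. The unit is FPKM, a read count divided by exon length and by library depth, and genes that reached 1 FPKM in 4 or more of 24 libraries were kept. That filter kept 11377 genes, among them all 37 members, and each member reached an FPKM of 1 in all 24 libraries. By role, the set holds 5 ATG8 proteins, 6 cargo receptors, 5 initiation genes, 5 lipid kinase genes, 7 membrane supply genes, 8 conjugation genes and 1 tethering gene.

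In autophagy, a cell wraps cytoplasm, organelles or swallowed material in a double membrane and hands it to the lysosome. A kinase complex around Ulk1 starts the process, a lipid kinase complex around Becn1 and Pik3c3 marks the membrane with a phosphoinositide, and lipid carriers enlarge it. A ubiquitin-like conjugation system then fixes ATG8 proteins (the LC3 and GABARAP families) onto the membrane, where cargo receptors such as Sqstm1 (p62) bind them. Macrophages use part of the same conjugation system on phagosomes that hold dead cells or microbes. These are messenger RNA levels, which do not measure how much cargo is degraded.

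The cells were macrophages grown for 7 days from C57BL/6 mouse bone marrow in medium conditioned by L929 fibroblasts. They came from mice labelled Trem2(-/-), a knockout (KO) of a lipid-sensing macrophage receptor, or from wild-type (WT) mice. For 24 hours they received ACM, a serum-free medium from AML12 mouse hepatocytes made apoptotic with 800 µM palmitate, or 500 nM of the signalling lipid S1P (sphingosine-1-phosphate), or they stayed untreated. The 6 groups, KO ACM, KO S1P, KO untreated, WT ACM, WT S1P and WT untreated, had 4 libraries each. The sources used here do not give the knocked-out allele or the medium or vehicle of untreated cells, and no group received palmitate alone. The labels name no culture, animal or batch, so p-values measure the spread between libraries, which may be technical. Library numbers run in separate blocks by genotype and treatment, and an effect of handling cannot be told apart from the groups.

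The libraries held 16.59 to 25.15 M reads (M, 1e6), as recovered from the deposited values. Trem2 stood at an FPKM of 35.7 to 40.7 in 11 of 12 KO libraries, against 74.5 to 109 in the 12 WT libraries. Trem2 reads thus remained in KO libraries, and these values do not measure the receptor protein. In the library labelled KO untreated 81 Trem2 stood at 79.6, within the 74.5 to 82.7 of the WT untreated libraries. For 13 of the 37 members its value lay within the range of the other 3 KO untreated libraries. For 22 members it lay within the range of the 4 WT untreated libraries. A range of more libraries is wider, so these counts do not show which group the library is closer to. Sqstm1, Atg13 and Vmp1 lay above both ranges in this library, at 217, 13.3 and 29.2. Counts of called members and differences of Sqstm1 that rest on this library are given with and without it. Other differences and ranges of KO untreated include it unless stated. All 9 macrophage markers were kept. Their summed FPKM was 4406 to 4773 in KO ACM, 4513 to 4711 in KO S1P, 4211 to 6121 in KO untreated, 5944 to 6658 in WT ACM, 4324 to 5905 in WT S1P and 7376 to 7605 in WT untreated libraries. That sum was thus lower in every treated WT library than in any WT untreated one. The highest value of a single marker was 5917, so the sum can follow 1 gene, and the direction of each marker is not given. Of 9 hepatocyte markers 8 were found, none reached an FPKM of 1 in any library, and Serpina1a was at 0 throughout, ACM libraries included. Their traces summed to 0.0732 to 0.211 in WT ACM, 0.110 to 0.273 in WT S1P and 0 to 0.0242 in WT untreated libraries. In KO ACM and KO S1P the sum was 0, and in KO untreated 0 to 0.123. Of 8 granulocyte markers 4 were kept, and their list summed to 20.6 to 23.6 in KO ACM and KO S1P libraries, 7.00 to 21.1 in KO untreated and 5.54 to 10.9 in WT libraries. The part of these lists in the differences below was not tested.

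In WT untreated macrophages the members spanned a wide range of levels per length. Gabarap, an ATG8 protein, averaged an FPKM of 195 ± 1.71 and Sqstm1 149.6 ± 3.93 (SD, n = 4). Another 14 members lay between 10 and 100, and 21 lay under 10, where the median kept gene stood at 7.32. Gabarap alone made up 74.0 to 75.9% of the summed FPKM of the 5 ATG8 genes, and that share was 70.1 to 72.2% in WT S1P. Map1lc3b, the usual marker protein of autophagosomes, had an FPKM of only 17.6 ± 0.559. Its annotated exons add up to 7517 bases, against 1844 for Gabarap, and a long exon total lowers an FPKM. Atg16l2, a relative of the conjugation scaffold Atg16l1, had the lowest level at 1.76 ± 0.186.

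**Figure D1:**
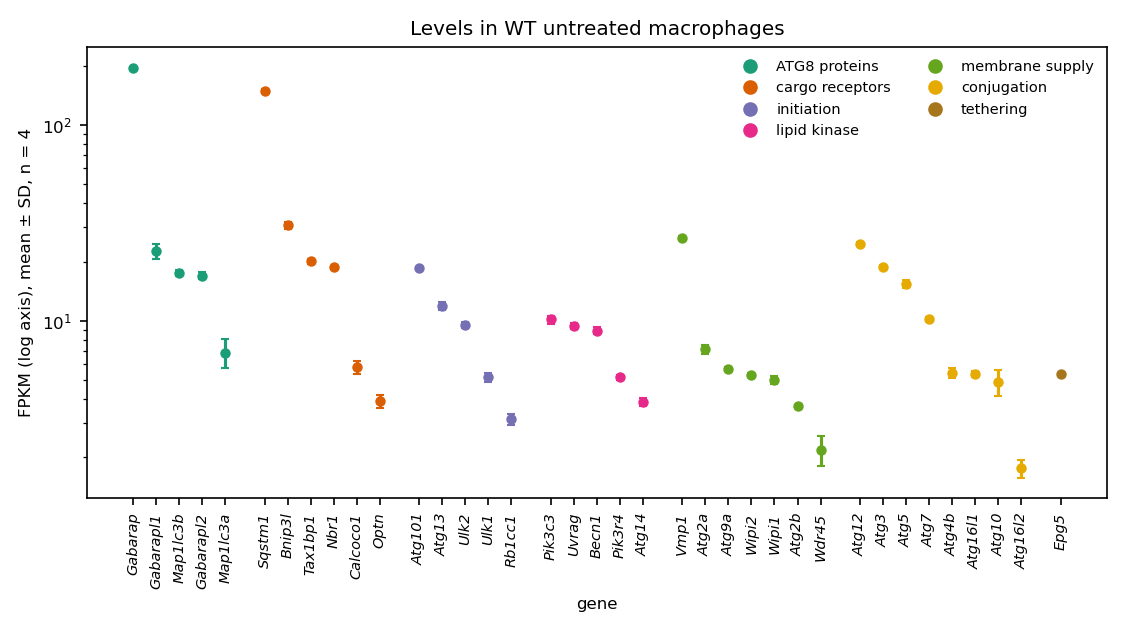
FPKM of the 37 genes in WT untreated macrophages, mean ± SD of 4 libraries on a log axis, coloured by role. Gabarap and Sqstm1 stand above 100, and 21 genes lie under 10.

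S1P in WT cells raised 4 of the 5 ATG8 genes and all 6 cargo receptors of the set. Of these receptors 3 (Optn, Calcoco1 and Bnip3l) were no longer called after rescaling to a common sum (TPM). Receptors outside the set did not all rise, and Bnip3 among them fell, as given below. Of the 37 members 18 rose and 2 fell at an adjusted p under 0.05 (limma over all 11377 genes), where 25.2% of all genes tested rose and 27.2% fell. The members' median log2 difference was 0.14, against 0.00 for all genes, and TPM gave 13 higher and 2 lower. The gene with the largest rise was Sqstm1, and the starters Ulk1 and Becn1 gave no call. Fewer cells of a type and less RNA per cell cannot be told apart in these bulk libraries. By role, the calls were 4 of 5 ATG8 genes, 6 of 6 cargo receptors, 3 of 7 membrane supply genes, 3 of 8 conjugation genes, 1 of 5 initiation genes and the tethering gene Epg5, all higher, and 2 of 5 lipid kinase genes, both lower.

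Sqstm1 encodes p62, a receptor that binds ubiquitinated cargo and ATG8 proteins and also holds the NRF2 repressor Keap1. It lies on the minus strand at chr11:50199366-50210827 (GRCm38). Its FPKM was 174, 169.7, 183 and 175 in KO ACM libraries, 177, 181, 181 and 181 in KO S1P, and 173, 171 and 174 in KO untreated, with 217 in the library labelled KO untreated 81. In WT cells it was 271, 274, 289.6 and 288 with ACM, 497, 661, 988 and 931 with S1P, and 145, 152, 153 and 148 untreated. All 4 WT S1P libraries stood above all 20 others, and all 4 WT ACM libraries above the remaining 16. The WT S1P mean was 5.14 times the WT untreated mean, a log2 difference of 2.30 ± 0.13 (SE; limma, adjusted p = 1.14e-11). The WT S1P libraries were themselves uneven, with an SD of 231 around a mean of 769, and the SE comes from a spread shared by all 6 groups. With only the compared groups in the fit the adjusted p was 5.27e-05 (limma). The exact permutation test gave 0.0286, two-sided, the smallest p that 70 arrangements of 4 against 4 allow. Sqstm1 made up 42.9 to 57.7% of the members' summed FPKM in WT S1P libraries, against 20.2 to 21.3% in WT untreated ones. Without Sqstm1 the other 36 members summed to 661 to 725 in WT S1P, against 568 to 577 in WT untreated libraries. The overlapping gene Mrnip on the opposite strand had a median FPKM of 0.944, low beside Sqstm1.

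Among the ATG8 genes, Gabarapl1, a GABARAP family member, had an FPKM of 34.7, 37.7, 48.6 and 43.7 in WT S1P, against 21.4, 25.4, 22.7 and 21.04 in WT untreated libraries. The ranges did not overlap, and the difference was 0.83 ± 0.08 (limma, adjusted p = 1.71e-08). Map1lc3a, the LC3A gene, had 11.95, 13.6, 12.3 and 14.0 in WT S1P, against 6.34, 8.49, 5.80 and 6.84 in WT untreated libraries. Its difference was also 0.83 ± 0.10 (limma, adjusted p = 2.41e-07), again without overlap. Gabarap rose by 0.24 and Gabarapl2 by 0.29 on the log2 scale. Map1lc3b had 18.3, 17.6, 17.8 and 18.4 in WT S1P, against 18.03, 16.8, 17.8 and 17.7 in WT untreated libraries. Those ranges overlapped, and its difference of 0.04 had a 95% interval of -0.04 to 0.11 (limma, adjusted p = 0.415). Map1lc3b and Gabarapl2 have near-identical processed copies in the genome, whose reads the counting could share.

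The other cargo receptors rose less than Sqstm1. Nbr1, a p62 partner with the same kind of ubiquitin-binding domain, had 23.8, 24.9, 28.5 and 27.5 in WT S1P, against 18.4, 18.7, 19.1 and 18.6 in WT untreated libraries. No WT S1P library overlapped WT untreated, and the difference was 0.46 ± 0.04 (limma, adjusted p = 1.06e-08). Tax1bp1, another ubiquitin-binding receptor, rose by 0.36, Optn (optineurin) by 0.25, the ER receptor Calcoco1 by 0.18 and the mitochondrial receptor Bnip3l by 0.10. The libraries of Optn and Bnip3l overlapped between WT S1P and WT untreated, with adjusted p-values of 0.0436 and 0.0493 (limma). Bnip3l also has a near-identical copy, Bnip3l-ps (99.38% over 1131 bases, median FPKM 0.727), whose reads the counting could share. Optn lost its call without WT S1P library 27 or 28 or WT untreated library 1, 3 or 4 (adjusted p from 0.0633 to 0.203). Bnip3l lost it without WT S1P library 26, 27 or 28 or WT untreated library 2, 3 or 4 (0.0680 to 0.173), and Calcoco1 without WT untreated library 3 (0.0552).

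Of the initiation genes, Atg13, the subunit that links Ulk1 to its scaffold, rose alone. Its FPKM was 18.5, 18.7, 22.3 and 20.2 in WT S1P, against 11.7, 11.6, 11.7 and 12.8 in WT untreated libraries. The difference was 0.69 ± 0.05 (limma, adjusted p = 1.15e-09), without overlap. Ulk1, the kinase itself, had 5.39, 5.14, 5.18 and 5.99 in WT S1P, against 4.999, 5.49, 5.25 and 4.87 in WT untreated libraries. The libraries were interleaved, and the 95% interval of its difference was -0.04 to 0.17. Atg101, the partner of Atg13, had 19.3, 17.1, 18.8 and 14.5 in WT S1P, against 18.8, 18.6, 18.8 and 18.3 in WT untreated libraries. The WT S1P values straddled the narrow untreated range, with a difference of -0.10 ± 0.06 (limma, adjusted p = 0.183). Without WT S1P library 25 it was -0.15 with an adjusted p of 0.0468 (limma).

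The lipid kinase complex went the other way or gave no call. Becn1, its regulatory subunit, had 8.99, 8.54, 9.25 and 8.56 in WT S1P, against 9.10, 8.90, 8.39 and 9.21 in WT untreated libraries, which overlapped over nearly their whole range. The 95% interval of its difference was -0.08 to 0.06. Uvrag, the subunit of the complex that works on endosomes and late autophagosomes, had 9.31, 8.33, 8.34 and 8.12 in WT S1P, against 9.64, 9.62, 9.01 and 9.16 in WT untreated libraries. WT S1P library 25 overlapped WT untreated and the other 3 lay below it, with a difference of -0.12 ± 0.04 (limma, adjusted p = 0.00793). Pik3c3, the catalytic kinase (Vps34), had 9.60, 10.0, 8.46 and 9.06 in WT S1P, against 10.6, 10.4, 10.0 and 9.52 in WT untreated libraries. Its difference of -0.12 ± 0.05 was called (limma, adjusted p = 0.0456) with overlapping ranges. The call was lost without WT S1P library 27, where the adjusted p was 0.195, without library 28 (0.102), or without WT untreated library 1 (0.132), 2 (0.103) or 3 (0.0630). With only the compared groups in the fit both lost their call, with adjusted p-values of 0.0603 for Uvrag and 0.116 for Pik3c3 (limma).

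Among membrane supply genes, Vmp1, an ER membrane protein that moves lipid to the growing membrane, had 40.4, 42.2, 44.5 and 42.7 in WT S1P, against 26.6, 25.7, 26.7 and 26.8 in WT untreated libraries. The groups lay far apart, and the difference was 0.66 ± 0.04 (limma, adjusted p = 8.05e-11). The annotated transcripts of Vmp1 contain the miRNA gene Mir21a on the same strand, which was at a median FPKM of 0. Atg2a, a lipid transfer protein, had 8.37, 9.03, 9.67 and 8.99 in WT S1P, against 6.61, 7.27, 7.48 and 7.31 in WT untreated libraries. It rose by 0.29 ± 0.05 (limma, adjusted p = 1.58e-05) without overlap. Wipi2, which reads the phosphoinositide mark, rose by 0.22. The scramblase Atg9a, Atg2b, Wipi1 and Wdr45 gave no call, though Wdr45 passed without WT untreated library 2 or 3 (limma, adjusted p = 0.0474 and 0.0447).

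In the conjugation system the calls were small. Atg7, the activating enzyme, rose by 0.24, Atg12 by 0.18 and its partner Atg5 by 0.12 on the log2 scale. Atg12 and Atg5 lost their call with TPM (limma, adjusted p = 0.120 and 0.212), and Atg5 without WT untreated library 3 (0.0665). Atg3, which transfers ATG8 proteins to lipid, had 19.6, 20.3, 20.02 and 19.8 in WT S1P, against 18.7, 18.6, 18.3 and 19.5 in WT untreated libraries. The ranges just missed each other, and the difference of 0.08 ± 0.04 was not called (limma, adjusted p = 0.0868). Atg16l1 had 5.29, 5.53, 5.55 and 5.22 in WT S1P, against 5.51, 5.10, 5.22 and 5.44 in WT untreated libraries, with overlapping ranges. Epg5, which tethers autophagosomes to lysosomes, rose by 0.30. The WT S1P libraries tended to differ in step across the members called higher. Of these 18 genes, 14 had their highest WT S1P FPKM in library 27 and 4 in library 28, and 14 had their lowest in library 25. Not all other members followed, and Atg101, Ulk2 and Uvrag were highest in library 25. The same count over all genes was not made.

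**Figure D2:**
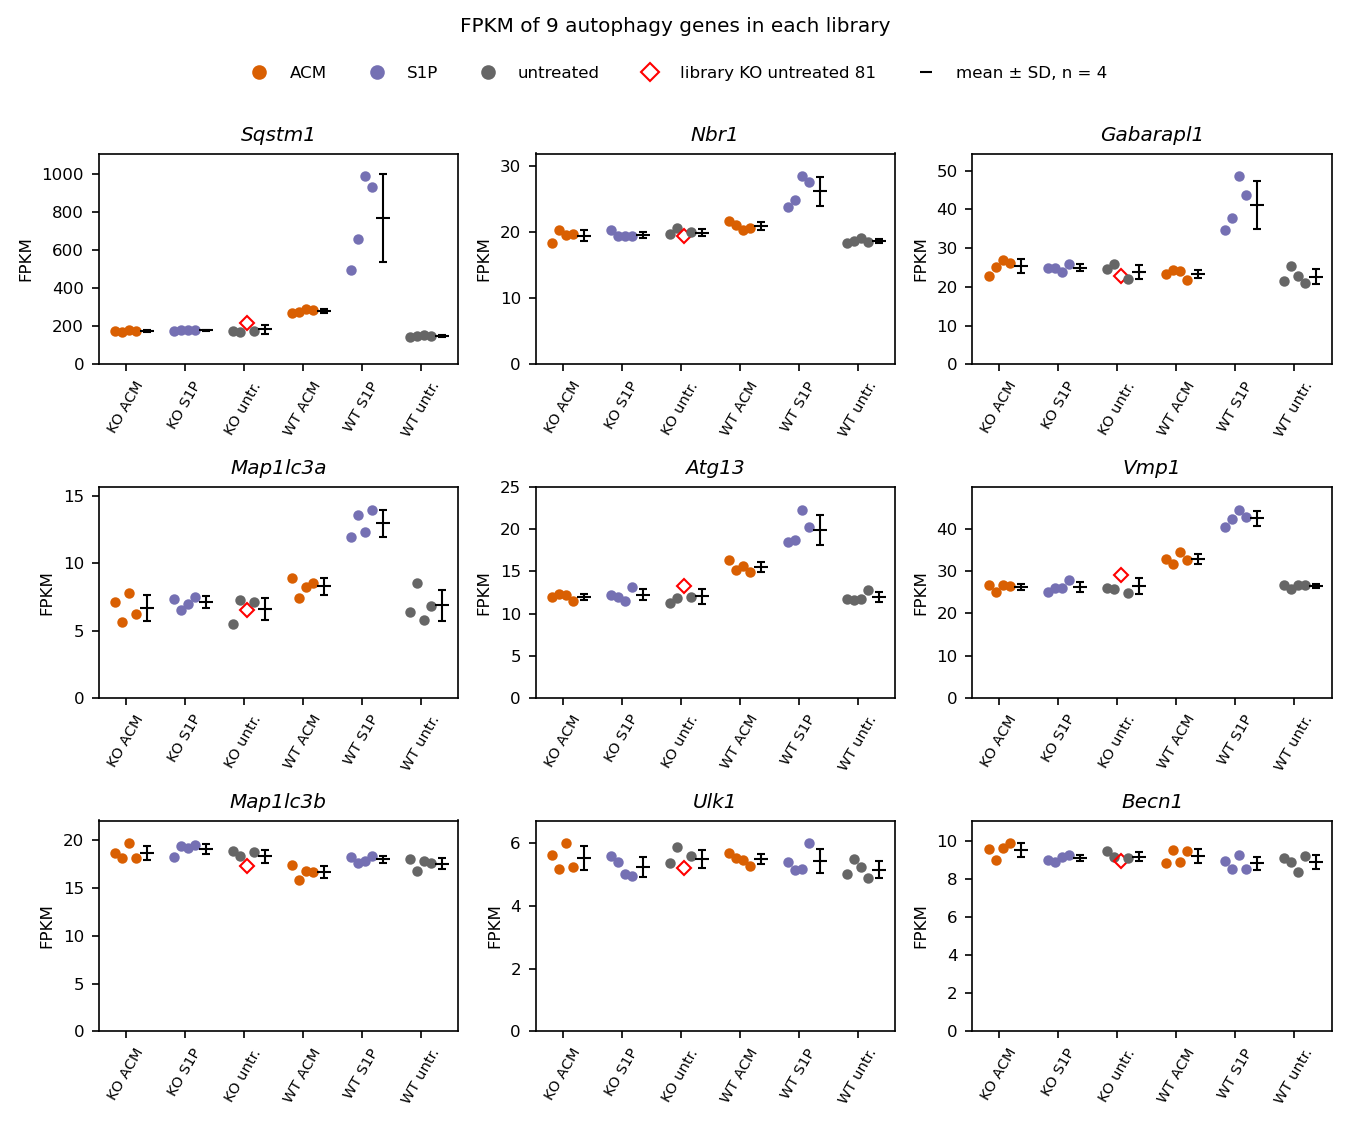
FPKM of 9 autophagy genes in each library of the 6 groups, with the mean ± SD of 4 libraries beside them and the library labelled KO untreated 81 as an open diamond. Sqstm1 reaches 497 to 988 in WT S1P, against 145 to 153 in WT untreated libraries, while Map1lc3b, Ulk1 and Becn1 overlap between these groups.

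The promoters of the 4 largest rises that could be matched are shown because these genes moved together in WT S1P. The members were matched by symbol to a RefSeq promoter table (GRCm38.p6), which gave a promoter for 29 of 37, and each sequence is the 250 bases before the start RefSeq gives, 5′ to 3′ on the gene's own strand. For members with several promoters the one nearest the GENCODE start was taken. The RefSeq start can differ from it, by 7 bases for Sqstm1, 32 for Gabarapl1, 16 for Atg13 and 0 for Vmp1. For members not shown the distance reached 27999 bases, for Atg7. They lie at chr11:50210821-50211070 (Sqstm1, minus strand), chr6:129532942-129533191 (Gabarapl1, plus), chr2:91710593-91710842 (Atg13, minus) and chr11:86683837-86684086 (Vmp1, minus). Capitals mark TGACNNNGC, the core of the antioxidant response element, read on either strand.
Sqstm1: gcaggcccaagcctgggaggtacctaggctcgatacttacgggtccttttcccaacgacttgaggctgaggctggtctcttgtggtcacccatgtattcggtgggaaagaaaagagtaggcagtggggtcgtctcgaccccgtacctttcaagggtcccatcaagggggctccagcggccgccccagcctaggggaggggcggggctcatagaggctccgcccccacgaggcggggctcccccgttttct
Gabarapl1: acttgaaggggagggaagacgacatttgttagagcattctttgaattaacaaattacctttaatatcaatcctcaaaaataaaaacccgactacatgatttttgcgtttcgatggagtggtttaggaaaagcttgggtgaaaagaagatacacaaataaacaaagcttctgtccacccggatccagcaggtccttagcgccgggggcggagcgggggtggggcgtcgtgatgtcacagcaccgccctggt
Atg13: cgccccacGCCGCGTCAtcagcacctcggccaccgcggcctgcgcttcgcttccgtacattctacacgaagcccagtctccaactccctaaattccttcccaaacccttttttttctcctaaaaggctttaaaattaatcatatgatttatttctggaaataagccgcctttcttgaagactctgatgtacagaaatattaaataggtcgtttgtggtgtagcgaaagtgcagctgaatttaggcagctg
Vmp1: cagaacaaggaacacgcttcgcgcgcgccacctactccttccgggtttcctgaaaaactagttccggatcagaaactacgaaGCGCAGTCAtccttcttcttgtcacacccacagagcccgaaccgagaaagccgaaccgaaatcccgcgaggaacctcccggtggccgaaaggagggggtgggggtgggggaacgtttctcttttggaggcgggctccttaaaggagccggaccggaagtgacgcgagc

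In windows of 300 bases (250 before and 50 after the start, both strands), TGACNNNGC occurred in 7 of the 33 promoters the table holds for the 29 matched members, or 21.2%, against 12.4% of all 32851 promoters. A member can have more than 1 promoter there, and the 7 belonged to 5 members, Atg13, Map1lc3b, Tax1bp1, Ulk2 and Vmp1. Map1lc3b and Ulk2 among them gave no call in WT S1P. CACGTG, the core of the E-box bound by TFEB, occurred in 4 of the 33 member promoters, or 12.1%, against 7.15% of all promoters, 1 each for Atg14, Atg3, Atg5 and Atg7. Of these 4, Atg5 and Atg7 were called. The RefSeq starts nearest the GENCODE start lay 27999 bases from it for Atg7 and 2215 for Atg14. TGATGNAA, the C/EBP-ATF element bound by ATF4, occurred in 0 of 33, against 3.97% of all promoters. No member held more than 1 of the 3 motifs, and such letters describe the window only.

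ACM in WT cells raised 6 members and lowered none, where 12.2% of all genes rose and 9.85% fell. The median member moved by 0.04 on the log2 scale, against 0.00 for all genes. Sqstm1 again moved most, with 271 to 289.6 in WT ACM, against 145 to 153 in WT untreated libraries, a ratio of means of 1.88 and a log2 difference of 0.90 ± 0.13 (limma, adjusted p = 5.80e-05). Atg13 had 16.3, 15.2, 15.7 and 14.9 in WT ACM libraries, all above WT untreated, and rose by 0.35 ± 0.05 (limma, adjusted p = 9.49e-05). Vmp1 had 32.8, 31.6, 34.6 and 32.6, also all above WT untreated, and rose by 0.30 ± 0.04 (limma, adjusted p = 4.56e-05). Nbr1 rose by 0.15, Gabarapl2 by 0.16 and Epg5 by 0.16. Gabarapl2 lost its call without WT ACM library 19, 20 or 21 or WT untreated library 1, 3 or 4 (limma, adjusted p from 0.0517 to 0.127), and Epg5 without WT ACM library 19, 20 or 22 or the same untreated ones (0.0626 to 0.108). Gabarapl1 had 23.3, 24.3, 24.0 and 21.9 in WT ACM, within the WT untreated range, with a difference of 0.05 and a 95% interval of -0.12 to 0.21. Map1lc3a, at 8.92, 7.43, 8.22 and 8.496, differed by 0.24 ± 0.10 (limma, adjusted p = 0.0733), and by 0.34 without WT untreated library 2 (limma, adjusted p = 0.0130). Map1lc3b, Ulk1 and Becn1 gave no call, with differences of -0.07, 0.08 and 0.04, though Map1lc3b was called lower with TPM (-0.18; limma, adjusted p = 0.0326).

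With TPM the median over all genes shifted by -0.10 in the WT ACM comparison, and 3 members were then higher and 4 lower, the 4 being Atg101 (-0.28), Atg5 (-0.21), Map1lc3b (-0.18) and Pik3c3 (-0.17). Sqstm1, Atg13 and Vmp1 were still higher on that scale, by 0.79, 0.24 and 0.19 (limma, adjusted p = 7.20e-04, 0.0126 and 0.0352), and Nbr1, Gabarapl2 and Epg5 were not called. Atg101, at 15.8, 16.0, 16.6 and 17.3 in WT ACM libraries, lay below all WT untreated ones, with a difference of -0.17 ± 0.06 that was not called (limma, adjusted p = 0.0506). It passed with FPKM of at least 5, TPM, quantile normalization, a fit of only the compared groups, or without WT ACM library 22, with adjusted p-values from 0.00429 to 0.0471 (limma).

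WT ACM and WT S1P libraries were also set against each other. Of the 37 members 1 was higher and 18 were lower with ACM, where 23% of all genes were higher and 18.5% lower. Sqstm1 was lower with ACM by 1.40 ± 0.13 on the log2 scale (limma, adjusted p = 1.16e-07). Gabarapl1 differed by -0.78 ± 0.08 (limma, adjusted p = 2.63e-07), Map1lc3a by -0.59, Vmp1 by -0.36 and Atg13 by -0.34. Uvrag was the member higher with ACM, at 10.0, 10.1, 10.3 and 9.50 in WT ACM, against 9.31, 8.33, 8.34 and 8.12 in WT S1P libraries, a difference of 0.20 ± 0.04 (limma, adjusted p = 1.39e-04). Map1lc3b lay lower with ACM by 0.10 (limma, adjusted p = 0.0202), a call that was lost without WT ACM library 20 (0.0841) or WT S1P library 28 (0.0583). ACM and S1P share the WT untreated libraries, so their differences from these are not independent of each other.

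In KO cells neither treatment gave a call for any member. With ACM 0 of 37 rose or fell, where 0% of all genes rose and 0.00879% fell. In that comparison 1 member had an unadjusted p under 0.05, and the smallest adjusted p was 0.344 (limma). With S1P 0 of 37 rose or fell, again where 0% of all genes rose and 0.00879% fell. Here 4 members had an unadjusted p under 0.05, and the smallest adjusted p was 0.288 (limma). Without KO untreated 81 the ACM comparison again had 0 of 37 called, where 0.0176% of all genes rose and 0.0264% fell, and the S1P comparison 0 of 37, where 0.0264% rose and 0.158% fell. Both comparisons use the same KO untreated libraries. Members differed by -0.09 to 0.12 with ACM and by -0.09 to 0.17 with S1P on the log2 scale.

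Sqstm1 in KO S1P differed from KO untreated by -0.02, with a 95% interval of -0.30 to 0.25, and by 0.06 without library 81 (-0.23 to 0.35). Its ACM difference was -0.06 (-0.34 to 0.21), and 0.02 without library 81. These intervals use the spread shared by all 6 groups, and the SD of Sqstm1 was 231 in WT S1P but 1.95 in KO S1P. Without library 81 all KO S1P libraries (177 to 181) lay above the KO untreated ones (171 to 174). For Gabarapl1, which had 25.02, 25.02, 23.9 and 25.95 in KO S1P, against 24.7, 25.9 and 22.1 in KO untreated and 22.8 in library 81, the S1P interval was -0.10 to 0.23. Atg13, Vmp1 and Map1lc3a stayed within 11.2 to 13.3, 24.7 to 29.2 and 5.49 to 7.81 over all 12 KO libraries. The upper ends for Atg13 and Vmp1 were those of library 81. The members with the smallest p-values in KO cells were Atg3 and Atg101. Atg3 had 19.6, 20.4, 20.2 and 20.002 in KO S1P, all above the 18.2, 19.2 and 18.8 of KO untreated and the 17.3 of library 81, a difference of 0.12 ± 0.04 (limma, adjusted p = 0.288). Atg101 had 19.8, 19.9, 19.3 and 18.7 in KO S1P, all above the 17.4, 17.0 and 17.2 of KO untreated and the 17.2 of library 81, a difference of 0.17 ± 0.06 (limma, adjusted p = 0.348). Atg16l1 had 5.21, 5.35, 5.33 and 5.31 in KO S1P, all below the 5.58, 5.69 and 5.63 of KO untreated and the 5.46 of library 81, a difference of -0.06 ± 0.03. These 3 genes had groups without overlap, library 81 included, and failed the correction over all genes. KO ACM against KO S1P gave 0 calls in either direction, where 0.0352% of all genes were higher and 0% lower, and 1 member, Wipi1, had an unadjusted p under 0.05.

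**Figure D3:**
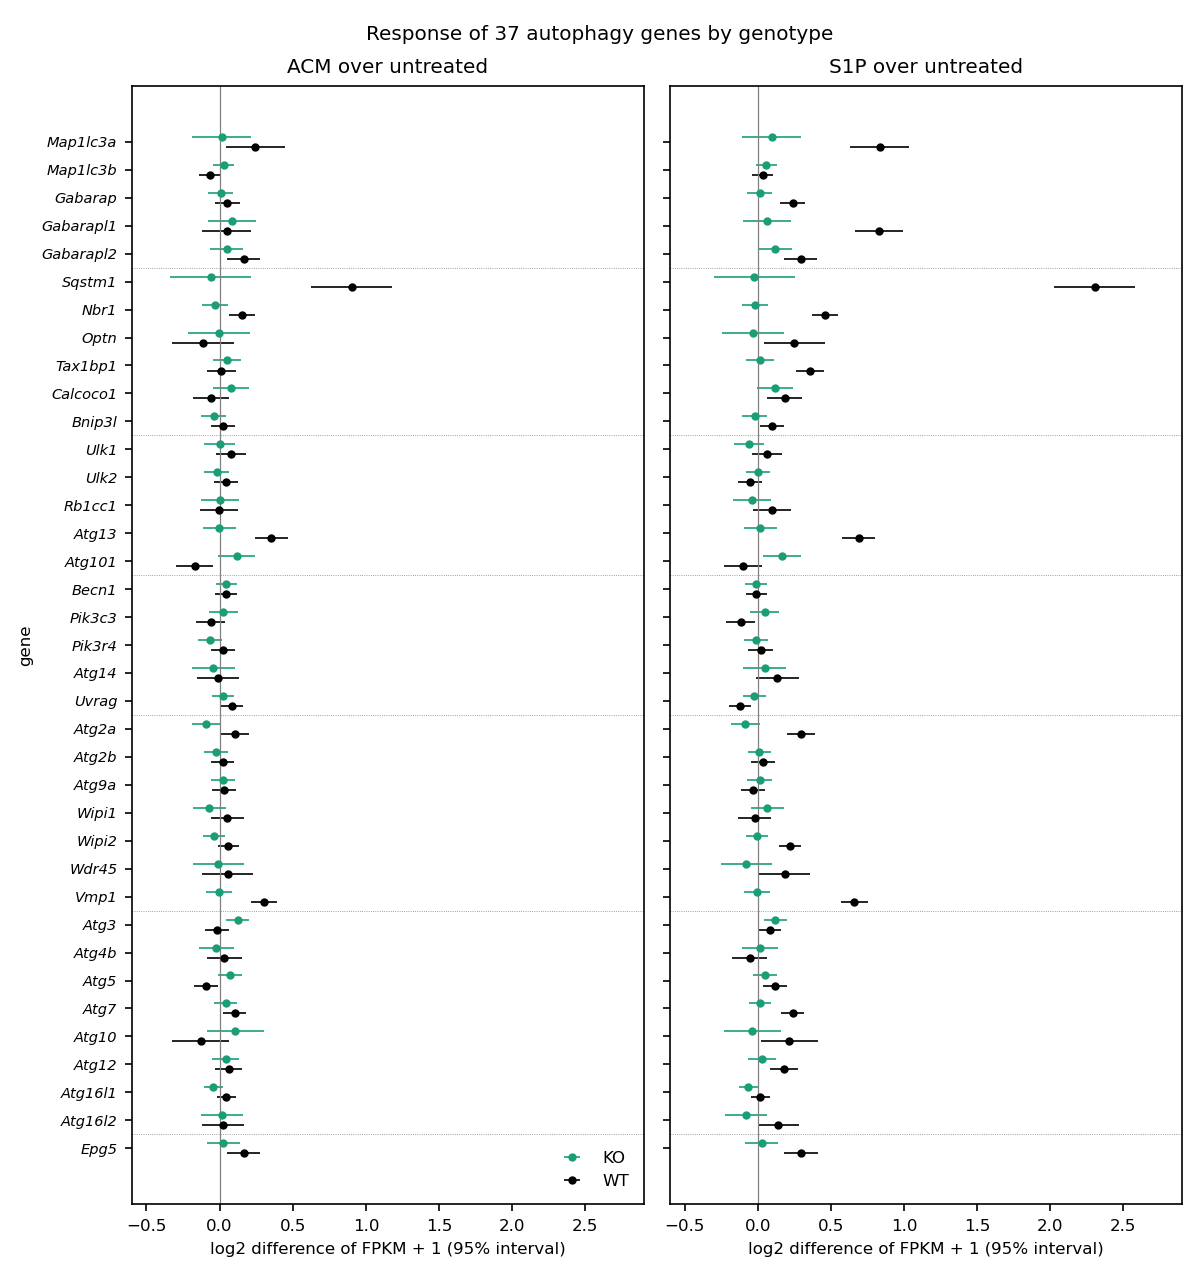
log2 difference of each of the 37 genes after ACM and after S1P, with KO drawn above WT for each gene and bars for the 95% interval of the limma fit. KO points lie between -0.09 and 0.17 in both panels, whereas in WT cells Sqstm1 reaches 0.90 with ACM and 2.30 with S1P.

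Whether the response itself differed by genotype was tested as an interaction, the treatment difference in KO minus that in WT. For S1P 1 member was higher and 12 were lower, where 22.5% of all genes were higher and 19.4% lower, and without KO untreated 81 the counts were 1 and 13, where 22.3% and 19.2% of all genes were called. Sqstm1 had an interaction of -2.33 ± 0.19 (limma, adjusted p = 8.03e-09), and -2.25 without library 81. Gabarapl1 gave -0.76 ± 0.11 (limma, adjusted p = 1.26e-05), Map1lc3a -0.74 ± 0.14 (1.56e-04), Atg13 -0.67 ± 0.08 (6.70e-07) and Vmp1 -0.67 ± 0.06 (4.03e-08). The others lower were Nbr1 (-0.48), Atg2a (-0.38), Tax1bp1 (-0.34), Epg5 (-0.27), Wipi2 (-0.23), Gabarap (-0.22) and Atg7 (-0.22), the last 2 of which lost their call with TPM (0.0854 and 0.0579). Atg101 was the member higher, at 0.27 ± 0.09 (limma, adjusted p = 0.0176), and lost its call with TPM (0.0530). Pik3c3 (0.16; limma, adjusted p = 0.0568) passed without WT untreated library 4, WT S1P library 25 or 26, KO untreated library 80 or KO S1P library 93 (0.0216 to 0.0475). Uvrag (0.10, 0.136) passed without WT S1P library 25 (0.0184).

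For ACM 2 members were higher and 5 lower in the interaction, where 7.41% of all genes were higher and 9.64% lower. Without KO untreated 81 the counts were 1 and 5, where 6.16% and 8.75% of all genes were called. With TPM, which moved the median of all genes by 0.10 here, 2 were higher and 1 lower. Sqstm1 gave -0.97 ± 0.19 (limma, adjusted p = 0.00133), and -0.89 without library 81. Atg13 gave -0.35 ± 0.08 and Vmp1 -0.31 ± 0.06 (limma, adjusted p = 0.00284 and 0.00157), and both lost their call with TPM (0.0845 and 0.144). Nbr1 gave -0.19 and Atg2a -0.20 (limma, adjusted p = 0.0373 and 0.0443), and Atg101 (0.29) and Atg5 (0.17) were higher (0.0270 and 0.0468). These last 4 calls were fragile when 1 of the 16 libraries was left out. Nbr1 lost its call in 10 of 16 such fits (0.0512 to 0.0816), without KO ACM 85, 87 or 88, KO untreated 80 or 82, WT ACM 19 or 20, or WT untreated 1, 2 or 4. Atg2a lost it in 11 (0.0541 to 0.0989), without KO ACM 87 or 88, KO untreated 79, 80 or 82, WT ACM 19, 20 or 22, or WT untreated 1, 2 or 4. Atg101 lost it in 4 (0.0528 to 0.0555), without KO ACM 85, 87 or 88 or WT ACM 19. Atg5 lost it in 12 (0.0528 to 0.0976), without KO ACM 85, 86 or 87, KO untreated 80, 81 or 82, WT ACM 19, 21 or 22, or WT untreated 1, 2 or 4.

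Before treatment the genotypes gave no call. Of the 37 members 0 were higher and 0 lower in KO untreated than in WT untreated, where 1.26% of all genes were higher and 1.21% lower, and 2 members had an unadjusted p under 0.05. Without KO untreated 81 the counts were again 0 and 0, where 4.13% and 4.03% of all genes were called, and 5 members had an unadjusted p under 0.05. Sqstm1 was above WT untreated in all KO untreated libraries, at 171 to 174 and 217 in library 81, against 145 to 153. That difference of 0.29 ± 0.13 had an adjusted p of 0.278, and it was 0.21 with an adjusted p of 0.408 without library 81 (limma). The SE comes from a spread shared by all 6 groups. The SD of Sqstm1 FPKM was 231 in WT S1P, against 3.93 in WT untreated and 1.52 in KO untreated without library 81. The missing call therefore does not show that the untreated groups are alike for this gene. Atg2a differed by 0.11 ± 0.05 (limma, adjusted p = 0.254).

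With ACM, 4 members were higher and 6 lower in KO than in WT cells, where 12.5% of all genes were higher and 15.5% lower. With TPM 5 were higher, Atg5 and Pik3c3 among them, and 3 lower. Sqstm1 differed by -0.68 ± 0.13 (limma, adjusted p = 5.60e-04), Atg13 by -0.34 and Vmp1 by -0.31, each with all KO ACM below all WT ACM libraries. Wipi1, Map1lc3a and Bnip3l were lower by smaller amounts, from 0.14 to 0.28 on the log2 scale, and with TPM none of these 3 was called. Map1lc3a lost its call without KO ACM 86 or 88 or WT ACM 19, 21 or 22 (limma, adjusted p from 0.0646 to 0.134), and Bnip3l without KO ACM 87 or WT ACM 20 (0.0654 and 0.0515). Map1lc3b was higher in KO ACM, at 18.7, 18.1, 19.7 and 18.2, against 17.4, 15.9, 16.8 and 16.7 in WT ACM libraries, without overlap and with a difference of 0.15 ± 0.03 (limma, adjusted p = 0.00215). The others higher were Atg10 (0.28), Atg101 (0.18) and Atg3 (0.11). Atg101 and Atg3 lost their call without KO ACM 85, 87 or 88 or WT ACM 19, 20 or 21 (limma, adjusted p from 0.0546 to 0.140), Atg3 also with TPM (0.0760), and Atg10 without KO ACM 86 or 87 or WT ACM 21 or 22 (0.0594 to 0.126).

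With S1P, 5 members were higher and 16 lower in KO than in WT cells, where 26.9% of all genes were higher and 25.4% lower. With TPM 1 was higher and 17 lower, Atg10 and Rb1cc1 among them. Sqstm1 differed by -2.04 ± 0.13 (limma, adjusted p = 8.13e-11), a KO S1P mean of 180.0 against 769 in WT S1P. Map1lc3a (-0.78), Gabarapl1 (-0.69), Vmp1 (-0.67), Atg13 (-0.66), Nbr1 (-0.39), Tax1bp1 (-0.34), Wdr45 (-0.34) and Atg2a (-0.27) followed, each with all KO S1P libraries below all WT S1P ones. Pik3c3 was higher in KO S1P, at 10.9, 11.2, 10.1 and 10.7, against 9.60, 10.0, 8.46 and 9.06 in WT S1P libraries, without overlap. Its difference was 0.19 ± 0.05 (limma, adjusted p = 0.00210). Uvrag (0.14), Ulk2 (0.12), Atg4b (0.17) and Atg101 (0.16) were the others higher, and all 4 lost their call with TPM (limma, adjusted p from 0.109 to 0.308). Atg101 lost it also without KO S1P 91, 92 or 93 or WT S1P 26 or 28 (0.0555 to 0.204), Atg4b without KO S1P 91 or WT S1P 28 (0.0638 and 0.0817), and Ulk2 without KO S1P 91 or WT S1P 26 (0.0839 and 0.0535). Atg101 differed by 0.08 without WT S1P 28.

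**Figure D4:**
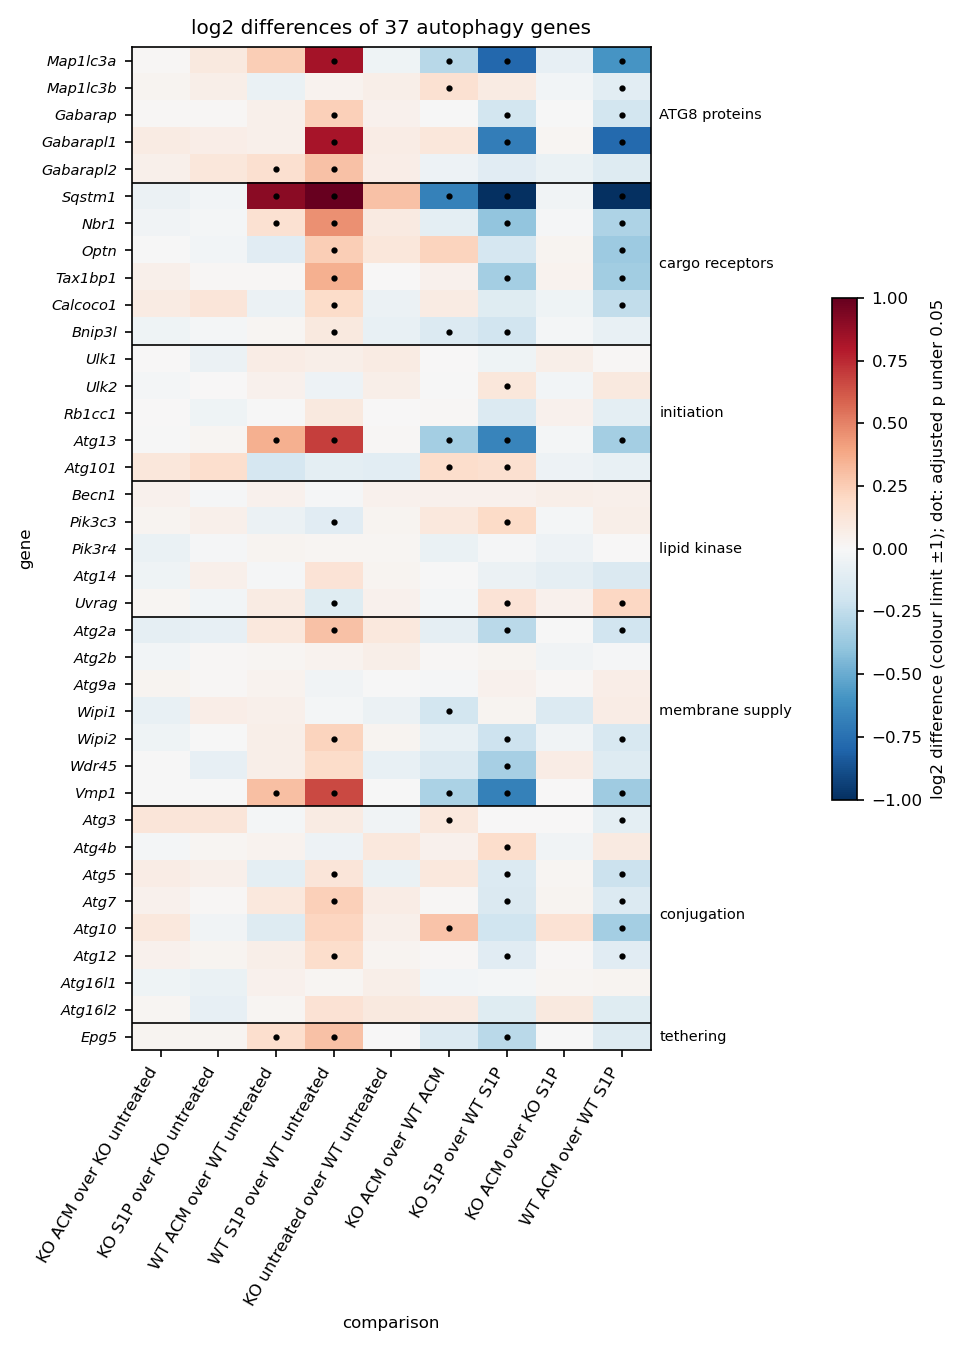
log2 differences of the 37 genes in 9 comparisons, grouped by role, with colour limits at ±1 and a dot where the limma adjusted p was under 0.05. The KO treatment columns hold no dot, and the column of WT S1P over WT untreated holds 20, 18 of them higher.

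A list of 62 other autophagy genes (transcription factors and nutrient sensors, further core factors, further receptors and tags, and fusion with lysosomes) had 58 kept. In WT S1P against WT untreated 18 of the 58 rose and 15 fell, where 25.2% of all genes rose and 27.2% fell, and their median log2 difference was 0.00, against 0.14 for the 37 members. In KO cells 0 of the 58 were called with either treatment, where 0% of all genes rose and 0.00879% fell, a share near the background. Of these 58, 4 had an unadjusted p under 0.05 with ACM and 3 with S1P (limma). The nutrient sensors Sesn1 and Sesn2, sestrins that restrain mTORC1, went opposite ways in WT S1P. Sesn1 averaged an FPKM of 13.2 in WT S1P and 24.3 in WT untreated cells, a difference of -0.84 ± 0.07 (limma, adjusted p = 1.06e-09), and Sesn2 averaged 15.9 and 11.4, a difference of 0.44 ± 0.06 (3.17e-06). Fnip2, a partner of folliculin, rose by 0.57. Among further receptors and tags, Pink1, the kinase that marks damaged mitochondria, averaged 18.2 in WT S1P and 11.8 in WT untreated cells, a rise of 0.59 ± 0.06 (limma, adjusted p = 3.62e-08). The mitochondrial receptor Bnip3 averaged 21.2 in WT S1P and 35.3 in WT untreated cells, a difference of -0.70 ± 0.08 (8.76e-08), while its relative Bnip3l rose by 0.10. Wdfy3, a large scaffold for protein aggregates, fell by 0.37. Further core factors included Ambra1 (0.27) and the protease Atg4c (0.31), which rose, and Atg9b (-0.32), which fell. Of the fusion genes, the SNARE Snap29 fell by 0.34, and the tethering subunits Vps18 and Vps11 rose by 0.17 and 0.12. The S1P interaction of these genes had the opposite sign to their WT difference, from 0.82 for Sesn1 to -0.65 for Fnip2, and it was not called for Atg9b and Vps18 (limma, adjusted p = 0.0636 and 0.0961).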

How the data were processed

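Per the labels' protocols, messenger RNA was sequenced from mouse bone marrow macrophages. The values are the FPKM the authors deposited for 54532 genes in 24 libraries, and 0 of their columns went unmapped to a sample. The submitters' processing notes list the aligners STAR and HISAT2, the counters StringTie and featureCounts, STAR-Fusion, DESeq and edgeR, and the builds GRCm38 and mm10. Roles, versions and the handling of strand are not given there. Where counting ignores strand, reads of overlapping antisense genes or near-identical copies cannot be told apart. Gene names and coordinates come from GENCODE M21 (GRCm38), which named 54495 identifiers. Exon length and the lowest steps gave back whole reads for 96.4 to 96.7% of values per library (tolerance 0.05), hence the depth of 16.59 to 25.15 M reads (M, 1e6).

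From the deposited FPKM, log2(FPKM + 1) of 11377 kept genes was tested with limma (version 3.58.1, R version 4.3.3) using a single model of the 6 groups and limma's trend option. There were 11 comparisons, with Benjamini-Hochberg adjustment over all genes and calls at 0.05. Fold changes on this scale understate those of low genes. Single values also had an exact two-sided permutation test (scipy 1.17.1).

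The rule for genes given by library took Map1lc3b, Sqstm1, Gabarapl1, Ulk1 and Becn1, the 3 smallest adjusted p-values and the 2 largest called changes each way in each treatment comparison, and the 2 smallest called p-values in each other comparison. This came to 14 members, and the rest are given by counts and folds. From the other autophagy genes it took up to 3 per subgroup. The members and lists were chosen with earlier results of these data known. Gabarap and Trem2 values and the promoters shown were added after seeing the data.

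On data simulated for WT S1P over WT untreated with 11377 genes, the test recovered 68% of 50 genes changed by 0.25, 88% at 0.5 and 100% at 1 and 2 (log2), with 9 calls among unchanged genes. Changed genes were drawn only from those averaging above an FPKM of 5 on the log scale. Each gene had normal noise of equal spread in all groups, and few genes were changed. The rates therefore do not carry over to lower genes, uneven groups or the real comparisons. Alternatives were a pseudocount of 0.1, no filter, FPKM of at least 5, TPM, quantile normalization, median-of-ratios scaling, no trend, a fit of only the compared groups, and leaving out each library.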

Additional observations from a re-analysis of the deposited data

Results flagged for a closer look

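Among 84 sets of 4 libraries checked for a value far from its neighbours, 4 stood out, a share near the 1 in 20 that chance gives. Sqstm1 had its highest KO untreated FPKM, 217.0, in library 81, the library whose Trem2 level matched WT untreated. Sqstm1 was also lowest in KO S1P library 91, at 177.1, just under the 181 of the other 3. Atg101 was lowest in KO ACM library 86, at 16.49, and Atg13 was highest in WT untreated library 4, at 12.81.

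The response to ACM was called different between KO and WT cells, by the interaction in limma on the log2 scale, for Sqstm1 (-0.9663), Atg13 (-0.3546), Vmp1 (-0.3078), Atg2a (-0.1965) and Atg101 (0.2879) among the genes given by library. Of these, Atg13, Vmp1 and Atg2a lost their call with TPM. Atg2a also lost it in 11 of 16 fits that left out 1 library, and Atg101 in 4. The response to S1P was called different for Sqstm1 (-2.327), Gabarapl1 (-0.7632), Map1lc3a (-0.739), Atg13 (-0.6726), Vmp1 (-0.6676), Atg2a (-0.3791) and Atg101 (0.2672). Atg101 lost that call with TPM. A negative value means a lower response in KO than in WT cells.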

How the results depend on the processing

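No paired analysis was possible because the groups share no replicate numbers. Counts of members are given as higher and lower. In WT ACM over WT untreated (6 and 0) TPM gave 3 and 4, and FPKM of at least 5, quantile normalization and the fit of only the compared groups each gave 1 lower. In WT S1P over WT untreated (18 and 2) no filter and quantile normalization gave 1 lower and the compared groups 0. In KO ACM over WT ACM (4 and 6) no filter gave 1 higher and TPM 3 lower. In KO S1P over WT S1P (5 and 16) TPM gave 1 higher and the compared groups 3. WT ACM over WT S1P (1 and 18) gave 2 higher at FPKM of at least 5. The ACM interaction (2 and 5) gave 0 higher and 3 lower with no filter, 1 higher with no trend and 1 lower with TPM. The S1P interaction (1 and 12) gave 2 higher at FPKM of at least 5 and 0 with TPM. Leaving out 1 library gave 4 to 7 and 0 to 1 for WT ACM, 16 to 19 and 1 to 3 for WT S1P, 1 to 4 and 5 to 6 for KO ACM over WT ACM, 3 to 6 and 15 to 17 for KO S1P over WT S1P, 1 to 2 and 16 to 19 for WT ACM over WT S1P, 0 to 2 and 3 to 5 for the ACM interaction and 1 to 3 and 12 to 14 for the S1P interaction. It gave 0 and 0 throughout for both KO treatments, KO untreated over WT untreated and KO ACM over KO S1P. The cause of these shifts was not tested. Of the single genes given by library, 75 results lost a call and 23 gained one over all alternatives. Where either fit gave a call, 0 changed sign. Uncalled differences were not counted there and some did change sign. For Sqstm1 in KO ACM over KO untreated they ran from -0.09 to 0.02 when 1 library was left out. The rise of Sqstm1 in WT S1P ranged from 2.16 to 2.49 when 1 library was left out. In the simulation, with 4 libraries a group, changes of 0.25 on the log2 scale were recovered less often than larger ones.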
